A study of Bos taurus with 4 samples.

Results

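The genes described here encode the protein parts of the spliceosome and the heterogeneous nuclear ribonucleoproteins (hnRNPs). They were chosen by name, as embryo probes of the array whose platform symbol begins with SNRP, SF3A, SF3B, SRSF, SFRS, PRPF, HNRNP or LSM, with SNRPN left out. Of 43794 embryo probes, 21790 carried a gene symbol, and 126 probes of 75 genes met the rule. The embryos were bovine blastocysts, made by in vitro maturation, fertilisation and culture with oocytes from slaughterhouse ovaries. They were sired with sperm of bulls aged 10 months or with sperm of bulls aged 16 months, with 4 bulls in the design that gave sperm at either age. On each of 4 arrays there was RNA of a 10-month and of a 16-month sample, in opposite dyes. The 10-month sample was in Cy5 on replicates 1 and 2 and in Cy3 on replicates 3 and 4. Per the labels the arrays are biological replicates, but which bull or how many embryos stood behind each is not said. A p-value here covers just the spread among these arrays, which may be partly technical. All RNA was amplified before labelling, and the dyes were bound to guanine bases. In RNA from whole embryos, fewer cells of a type and less RNA per cell cannot be told apart.

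Splicing removes introns from pre-mRNA and is carried out by the spliceosome, which is assembled from small nuclear ribonucleoproteins (snRNPs), each a small nuclear RNA with its proteins. SNRP genes encode the Sm ring shared by most of these particles and proteins particular to U1 and U2. SF3A and SF3B form the U2 complex that recognises the branch point, and most PRPF proteins belong to the U4/U6.U5 tri-snRNP or act around it. LSM proteins form rings on U6 RNA in the nucleus and on decaying mRNA in the cytoplasm. SR proteins (SRSF, formerly SFRS) and hnRNPs bind exons and introns and influence which splice sites are used. Early embryos rely on this machinery from the time their own genome is transcribed, when stored maternal RNA is replaced.

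Marker genes of the embryo were above background on every array in both ages, at 8 of 8 trophectoderm genes and 4 of 4 inner cell mass genes. So were 62.3% of all tested probes with a symbol, a share that counts every probe, whereas the marker counts take 1 probe per gene. This detection alone cannot establish what the material was. Of markers of other cells, 1 of 6 cumulus or granulosa genes, 1 of 5 sperm or testis genes and 1 of 4 leukocyte genes measured were above background on every array. The exceptions were CYP19A1, ODF2 and PTPRC. The summed leukocyte signal lay between 6500 and 11100 in 10-month samples and between 4730 and 7430 in 16-month samples. PTPRC, the leukocyte antigen CD45, carried most of it, with a log2 ratio of 0.49 ± 0.20 (SE, 4 arrays; limma adjusted p = 0.957). Of the other leukocyte markers, CD74 was at -0.29 ± 0.12, CD14 at -0.19 ± 0.15 and CD3E at 0.18 ± 0.16, so the list had 2 positive and 2 negative ratios. The part of these markers in the values below was not tested. Between 33452 and 35972 embryo probes were above background per array, and the ratios of replicate 3 spread most widely, with an SD of 0.47 over all probes against 0.30 to 0.32 on the other arrays.

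Of the 126 splicing probes, 120 could be tested, for 74 of the 75 genes. The dimmest probes of SNRPE, HNRNPK, LSM1 and LSM14A, 4 in all, did not pass the background filter. A further 2 probes, the one for CLASRP (SFRS16 on the array) and one of those for SRSF2, had a spot that the scan software had set aside. CLASRP, a regulator of SR-protein kinases, was thus left without a tested probe. Where a gene had several tested probes, the brightest stands for it unless another is named. Old symbols were updated, so that SFRS1 to SFRS7, SFRS9 and SFRS11 appear as SRSF genes, SFRS2IP as SCAF11, SFRS12 as SREK1, SFRS8 as SFSWAP and SF3B14 as SF3B6.

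Splicing probes were bright. Of the 120, 104 (86.7%) were above background in both ages on every array, against 62.3% of all tested probes with a symbol. Over the probes of the set, the median normalised level, in log2 intensity, was 9.65 in 10-month samples and 9.54 in 16-month samples, against 7.65 and 7.67 over all named genes. SF3A was the highest family at a median of 11.77 in 10-month and 11.82 in 16-month samples, but it held only 3 probes. HNRNP followed with 11.27 and 11.18, SF3B with 10.89 and 10.92, and SNRP with 10.08 and 10.19. LSM was at 9.48 in 10-month and 9.54 in 16-month samples, SR at 9.01 and 9.26, and PRPF at 8.87 and 8.86. The difference between ages within a family was 0.25 or less, whereas single families spanned several log2 units, as from 6.68 to 14.68 for HNRNP probes and from 6.95 to 14.22 for SR probes. The order of families describes probe brightness. Brightness also depends on the probe, so the order is no measure of RNA per gene, as the probes of one gene show below.

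The comparison of sire ages asks whether the splicing genes of the embryo differed with the age of the bull. None passed: with limma, 0 of 120 splicing probes had an adjusted p under 0.05, where the count over all 36325 tested probes was also 0 (0%). At an unadjusted p under 0.05 there were 3 of 120 splicing probes (2.5%), against 3.96% of all probes. The one with a higher value at 10 months was HNRNPK, where 2.05% of all probes had such a p and a higher value. Both with a lower value, SCAF11 and SREK1, were among the 24 tested SR probes (2 of 24, 8.33%). Over all tested probes, 1.92% had such a p and a lower value. Taken by the brightest probe of each gene, 3 of 74 splicing genes (4.05%) had an unadjusted p under 0.05, against 4.47% of all named genes. With a count of 3, no difference from all probes is read here. The smallest adjusted p of any splicing probe was 0.957.

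Intervals of the fit bound the ratio of each probe taken alone, not of all probes jointly, and cover just the spread among these arrays. The log2 ratio of 10 over 16 months lay between -0.31 and 0.50 over the 120 probes. The 95% interval of the fit lay within 2-fold at all 120, against 99.4% of all tested probes, and within 1.5-fold at 107 (89.2%, against 87.2%). An offset of 50 added to both channels draws the ratios of dim probes towards 0, so for those the bound on the RNA itself is wider. Leaving out replicate 4 changed the count. In that fit replicate 3 alone had its dye orientation, so the residual spread came from replicates 1 and 2 only. Of all 36325 tested probes, 1858 passed the adjusted test. Of the 120 splicing probes 3 passed, for SNRPA1, HNRNPU and HNRNPK.

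HNRNPK, a poly(C)-binding hnRNP with roles in transcription and splicing, had the largest ratio of the set. Its brightest probe read 12.11, 11.61, 12.80 and 12.05 in the 10-month samples of replicates 1 to 4, against 11.63, 11.75, 11.54 and 11.66 in the 16-month samples. The 10-month values of replicates 1, 3 and 4 lay above all 16-month values, and that of replicate 2 was within their range. The log2 ratio was 0.50 ± 0.18 (SE, 4 arrays; 95% interval 0.08 to 0.91; unadjusted p = 0.0241, limma adjusted p = 0.957). Per array it was 0.48, -0.14, 1.26 and 0.39, so that replicate 3 held the largest value. The other tested HNRNPK probes, both dim, were at 0.01 ± 0.12 and -0.02 ± 0.14, with -0.19 and -0.32 on replicate 3.

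HNRNPC, which coats nascent transcripts, was at 0.38 ± 0.19 and HNRNPL, a binder of CA-rich RNA, at 0.31 ± 0.14. The level of HNRNPC was 11.29, 11.43, 11.67 and 11.43 in 10-month samples against 11.56, 10.90, 10.59 and 11.23 in 16-month samples. Those groups overlapped only through replicate 1, whose 16-month value was above its 10-month value. HNRNPL read 13.42, 13.57, 13.71 and 13.48 in 10-month samples against 13.38, 13.54, 12.79 and 13.22 in 16-month samples. It was higher in the 10-month sample of every array, by 0.04, 0.03, 0.92 and 0.26, but the groups overlapped. In the opposite direction lay HNRNPH1, a binder of G-runs, at -0.29 ± 0.14, the brightest HNRNPU probe at -0.27 ± 0.13 and the brightest HNRNPM probe at -0.17 ± 0.12. HNRNPU is a nuclear scaffold protein, and HNRNPM binds GU-rich RNA. HNRNPA1, the best-known antagonist of SR proteins, was at -0.14 ± 0.12 and HNRNPA2B1 at 0.04 ± 0.12. HNRNPA3 had the brightest probe of the family, at 14.67 ± 0.14 in 10-month and 14.70 ± 0.32 in 16-month samples (SD, n = 4 each), with a ratio of -0.03 ± 0.14. The HNRNP genes not named so far lay between -0.19 ± 0.16 for HNRNPR and 0.15 ± 0.14 for HNRNPH2. HNRNPK was the only gene of the family with an unadjusted p under 0.05. Of 18 HNRNP genes, 7 had a positive and 11 a negative ratio.

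In the SR family, SCAF11, an SR-related protein that binds SRSF2, had levels of 8.70, 9.25, 8.70 and 8.66 in 10-month samples against 8.81, 9.48, 9.12 and 9.10 in 16-month samples. The 10-month sample was lower on each of the 4 arrays, while the groups overlapped because replicate 2 was high in both ages. Its ratio was -0.30 ± 0.11 (unadjusted p = 0.0315, limma adjusted p = 0.957), and its other 2 probes were at -0.09 ± 0.12 and -0.01 ± 0.16. SREK1, a splicing regulatory protein rich in glutamate and lysine, read 8.31, 8.51, 8.51 and 9.12 in 10-month samples against 9.04, 9.09, 8.72 and 8.85 in 16-month samples. Replicate 4 went the other way from the rest, and its 10-month value was the highest of all 8. The SREK1 ratio was -0.31 ± 0.13 (unadjusted p = 0.0452, limma adjusted p = 0.957).

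SRSF2, which binds exonic enhancers and is also known as SC35, had the brightest probe of its family. It read 14.01, 14, 14.26 and 14.17 in 10-month samples, against 14.29, 14.28, 14.49 and 14.26 in 16-month samples. Every 10-month value was below every 16-month value except on replicate 3, whose 10-month sample equalled the lowest 16-month value. The ratio was -0.22 ± 0.11 (unadjusted p = 0.0906), or 0.857-fold. SRSF9 was lower by nearly the same amount on all arrays, at -0.12, -0.15, -0.19 and -0.14, with a fitted ratio of -0.15 ± 0.11. SRSF1, the founding SR protein, was at 0.13 ± 0.12, SRSF11 at 0.16 ± 0.15 and SRSF4 at 0.04 ± 0.18. SRSF3, the smallest member, was at -0.09 ± 0.12 and SRSF7 at -0.04 ± 0.13. SRSF5, SRSF6, SFSWAP and SFRS18 lay between -0.21 ± 0.18 for SFRS18 and -0.10 ± 0.14 for SRSF6. Of 13 SR genes, 3 had a positive and 10 a negative ratio.

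Among the SNRP genes, the Sm ring subunits SNRPD1, SNRPD2, SNRPD3, SNRPE, SNRPF and SNRPG lay between -0.20 for SNRPD3 and 0.01 for SNRPD1 and SNRPF. SNRPD1 was the steadiest, with 11.85 ± 0.03 in 10-month and 11.85 ± 0.08 in 16-month samples (SD, n = 4 each). SNRPB, the remaining Sm subunit, read 10.43, 10.32, 9.86 and 8.76 in 10-month samples against 10.43, 10.45, 9.93 and 9.56 in 16-month samples. Its values were near one another between ages on 3 arrays and apart on replicate 4, which gave a ratio of -0.25 ± 0.15. Of the U1 proteins, SNRPA was at 0.10 ± 0.12 and SNRPC at -0.17 ± 0.11. Of the U2 proteins, SNRPB2 had 11.20, 11.29, 11.10 and 11.31 in 10-month samples against 11.20, 10.82, 10.97 and 10.83 in 16-month samples. Only replicate 1, with equal values, kept those groups from lying apart, and the ratio was 0.27 ± 0.14 (unadjusted p = 0.0825). SNRPA1, its partner on U2 RNA, was at -0.14 ± 0.12 by its brightest probe. Of 11 SNRP genes, 4 had a positive and 7 a negative ratio by the brightest probe, while over all 20 tested SNRP probes 12 were positive and 8 negative.

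SF3B1, the large subunit that clamps the branch point, had levels of 13.19, 13.37, 13.33 and 13.31 in 10-month samples against 13.48, 13.43, 13.68 and 13.44 in 16-month samples. The ages did not overlap at this probe, and the 10-month sample was lower on each array, by 0.28, 0.05, 0.35 and 0.13. A ratio of the same sign on all 4 arrays was found at 9.37% of all tested probes. The share of all probes without overlap was not counted, so this and the near separations above are descriptions only. The fitted ratio was -0.20 ± 0.12 (unadjusted p = 0.129, limma adjusted p = 0.957), since the 4 differences were small against the variance the fit assigns to it. SF3B4 was at 0.24 ± 0.21, with ratios of 0.01, 0.71, 0.72 and -0.48 on the arrays. SF3B2 was at -0.10 ± 0.16, SF3B3 at -0.08 ± 0.14, SF3B5 at -0.17 ± 0.11 and SF3B6, the subunit that contacts the branch adenosine, at 0.00 ± 0.13. The SF3A trimer gave -0.13 ± 0.13 for SF3A1, 0.14 ± 0.13 for SF3A2 and -0.05 ± 0.13 for SF3A3. These 3 subunits of one complex thus did not share a sign.

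Of the PRPF genes, PRPF3, a U4/U6 protein, had levels of 9.34, 9.91, 10.08 and 9.34 in 10-month samples against 9.24, 9.53, 9.65 and 9.16 in 16-month samples. It was higher in the 10-month sample of every array, though the groups overlapped, and its ratio was 0.27 ± 0.12 (unadjusted p = 0.0596). Its U4/U6 partner PRPF4 was at -0.07 ± 0.14, and PRPF31, which joins U4/U6 to U5, at -0.15 ± 0.12. PRPF8, the central U5 scaffold and the brightest of the family, was at -0.10 ± 0.16. PRPF19, the ubiquitin ligase of the complex named after it, was at -0.04 ± 0.11, and the kinase PRPF4B at 0.02 ± 0.12. PRPF18, PRPF38A, PRPF39 and PRPF40B lay between -0.12 ± 0.12 for PRPF40B and 0.01 ± 0.12 for PRPF18. PRPF6, which bridges U5 and U4/U6, varied most of all: it read 10.70, 11.25, 8.28 and 8.91 in 10-month samples against 10.44, 9.32, 8.85 and 10.15 in 16-month samples. Its ratio was positive on both arrays with the 10-month sample in Cy5 (0.27 and 1.92) and negative on both with it in Cy3 (-0.57 and -1.24). The fit assigned 1.00 of this to the dye and 0.10 ± 0.25 to age.

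LSM genes had the narrowest range of fitted ratios among families with more than 3 genes, from -0.15 for LSM7 to 0.15 for LSM11, a protein of the U7 snRNP that matures histone mRNA. LSM3, the brightest, was at 13.50 ± 0.07 in 10-month and 13.58 ± 0.39 in 16-month samples (SD, n = 4 each), with a ratio of -0.08 ± 0.16. LSM2 was at 0.12 ± 0.12, LSM4 at 0.00 ± 0.12, LSM5 at 0.01 ± 0.15 and LSM6 at -0.06 ± 0.15. LSM1, which replaces LSM8 in the cytoplasmic ring, was at 0.06 ± 0.15. LSM12 was at 0.12 ± 0.15, LSM14A, an mRNP granule protein, at -0.06 ± 0.12, its relative LSM14B at -0.08 ± 0.12, and LSM10, the other LSM protein of the U7 snRNP, at -0.02 ± 0.13. Positive and negative ratios were equal in number, 6 each.

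Across the set, 47 of 74 genes (63.5%) had a negative ratio and 27 a positive one, whereas 50.8% of all 13506 named genes were negative. Probes of all named genes were dimmer, at a median level of 7.66 against 9.57, and brightness was not matched. Of 8 trophectoderm markers, 7 were negative and 1 positive (median -0.11), and of 4 inner cell mass markers 2 and 2. The lean was thus not shown to be particular to splicing genes. The median ratio was -0.08 over the splicing genes and 0.00 over all named genes. For the splicing genes it was -0.0365 without replicate 1, -0.0284 without replicate 3, -0.0498 with all probes of a gene averaged and -0.0107 when replicate 3 was given the opposite sign. Over all 120 probes, 52 ratios were positive and 68 negative. Family medians were -0.12 for SNRP, -0.11 for SR and HNRNP, -0.09 for SF3B, -0.07 for PRPF, -0.05 for SF3A and -0.01 for LSM. With all probes of a gene averaged, they were -0.043 for SNRP, -0.094 for SR, -0.0351 for HNRNP, -0.0768 for SF3B, -0.037 for PRPF, -0.0507 for SF3A and -0.0373 for LSM. The size and order of the family medians thus depended on the choice of probe. They were not tested, since genes of one array are not replicates.

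The arrays did not share this shift. The median over the 74 genes was -0.11, -0.03, -0.16 and 0.07 on replicates 1 to 4, and 45, 41, 48 and 30 of the genes had a negative ratio there. Replicate 4 was thus on the other side from the rest. SR was the family whose median was negative on every array, at -0.11, -0.15, -0.05 and -0.09. SNRP gave 0.00, -0.19, -0.03 and 0.07 on replicates 1 to 4, and SF3B gave -0.22, 0.13, -0.21 and -0.05. PRPF, at -0.05, 0.05, -0.17 and -0.06, also changed sign between arrays. HNRNP gave -0.16, -0.04, -0.23 and 0.09, LSM gave -0.03, -0.03, -0.22 and 0.22, and SF3A gave -0.32, 0.04, -0.16 and 0.20. Of the 7 families, SNRP, SF3A, HNRNP and LSM had their highest median on replicate 4. The fitted medians of SNRP, SF3B, SR and PRPF were negative under each of the 16 settings tried, those of HNRNP, SF3A and LSM under some settings only. Leaving out the dye term or using a trended robust variance cannot move these medians, since the fitted ratios stay the same. Dropping the background filter also left them unchanged, so fewer than 16 settings bear on the sign.

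A ratio of the same sign on all 4 arrays was found at 11 of the 120 splicing probes (9.17%), close to the 9.37% of all tested probes. On the negative side were probes of SNRPB, SNRPC, SF3B1, SRSF2, SCAF11, SRSF9 and HNRNPA1. On the positive side were probes of SNRPB2, PRPF3, HNRNPL and HNRNPM. For SNRPB and SNRPB2 the ratio on replicate 1 rounded to 0.00, so these kept their sign on that array only before rounding. The SNRPC and HNRNPM probes were not the brightest of their genes, and the brightest HNRNPM probe had a negative fitted ratio.

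Differences of 2-fold or more on a single array were few and depended on the array. On replicate 1 none of the 120 probes passed 2-fold (0.696% of all probes did), and on replicate 2 only PRPF6 did, with a higher 10-month value (0.584% of all). On replicate 3 there were 5 (4.17%, against 4.7% of all): the brightest probes of HNRNPC and HNRNPK and lesser probes of SNRPA1 and HNRNPU were higher in the 10-month sample, and a lesser probe of HNRNPH3 lower. The brightest probes of SNRPA1, HNRNPU and HNRNPH3 read -0.03, -0.59 and -0.08 on that array. On replicate 4 there were 2, SFSWAP and PRPF6, both lower in the 10-month sample (0.732% of all). SFSWAP, a regulator of alternative splicing, was also split by dye orientation, with 0.20 and 0.46 on replicates 1 and 2 but -0.12 and -1.0 on replicates 3 and 4. The dye coefficient was larger than the age coefficient in 41 of 74 splicing genes (55.4%) and in 59.3% of all named genes.

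Probes of one gene were then set against each other. Each ratio carries its own error, with a median SE of 0.13 over the splicing genes. A distance between probes therefore holds this error as well as any effect of the probe, and the 2 were not separated. Of the splicing genes, 27 had at least 2 tested probes, giving 71 pairs. The median distance between the highest and lowest fitted ratio of a gene was 0.20, against 0.18 over all 3380 named genes with several tested probes. In genes with exactly 2 tested probes it was 0.15 for 13 splicing genes and 0.13 for 1949 named genes. Probes of 18 splicing genes (66.7%) lay on both sides of 0, against 55.7% of all such genes. The distance exceeded 0.5 in 3 splicing genes (11.1%) and in 4.76% of all. Both of these shares grow with the number of probes per gene, which was not matched between the sets. Over the 71 pairs, 33 (46.5%) had 2 ratios of the same sign, against 55.4% of 7631 pairs. The correlation of fitted ratios between paired probes, each pair entered in both orders, was -0.08 for splicing genes and 0.14 for all, and it was -0.17 against 0.20 where both probes were above background everywhere (48 and 3735 pairs). These are descriptions across pairs that share arrays and genes.

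HNRNPU had the widest distance, 0.65. Its brightest probe (EMBV3_35232) read 11.34, 11.72, 11.02 and 11.19 in 10-month samples against 11.62, 11.70, 11.61 and 11.41 in 16-month samples. Its second probe (EMBV3_38276) read 10.77, 10.14, 10.89 and 10.35 in 10-month samples against 10.52, 9.98, 9.68 and 10.42 in 16-month samples. The probes disagreed most on replicate 3, at -0.59 and 1.21. Their fitted ratios were -0.27 ± 0.13 and 0.39 ± 0.20, neither with an unadjusted p under 0.05, although both were above background on every array.

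SNRPA1 had a pair of probes of nearly equal brightness that also parted on replicate 3. The brightest (EMBV3_39538) read 13.21, 13.18, 13.42 and 13.62 in 10-month samples against 13.37, 13.60, 13.45 and 13.55 in 16-month samples. The next (EMBV3_26890) read 13.22, 12.31, 13.74 and 13.19 in 10-month samples against 13.25, 12.20, 12.52 and 13.02 in 16-month samples. Only its replicate 3 values stood far apart between ages, by 1.21. Fitted ratios were -0.14 ± 0.12 and 0.36 ± 0.18, with 0.08 ± 0.12 for the third SNRPA1 probe. HNRNPK, described above, had a distance of 0.52.

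Without replicate 4, the second HNRNPU probe had a ratio of 0.70 (limma adjusted p = 0.0164), the second SNRPA1 probe 0.63 (adjusted p = 0.0233) and the brightest HNRNPK probe 0.72 (adjusted p = 0.024). These are the 3 of 120 splicing probes that passed in that fit, each with over 2-fold on replicate 3. Over all 36325 probes 1858 passed, and a count of 3 is too small for a comparison of shares. In no case did a further tested probe of the same gene pass.

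The next widest were SRSF2 at 0.38 over 3 probes, HNRNPM at 0.37 over 5, SRSF1 at 0.34 over 3, and SF3B1 and SRSF6 at 0.33 over 3 and 4. The 3 SF3B1 probes gave -0.20 ± 0.12, -0.15 ± 0.12 and 0.12 ± 0.13, so the separation of ages seen at its brightest probe was not seen at all of them. Among genes with 3 or more tested probes, the narrowest were SNRPA at 0.05, PRPF38A at 0.06, PRPF18 at 0.15 and SNRPC at 0.23. All 3 SNRPA ratios were positive, between 0.05 and 0.10, and all 3 PRPF38A ratios negative, between -0.12 and -0.06. HNRNPH1, one of the genes with 2 tested probes, gave -0.29 ± 0.14 and -0.25 ± 0.12, so both probes were negative and 0.04 apart. It was chosen for mention after its values were seen, and its dimmer probe was above background in the 10-month sample of 1 array only.

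Brightness differed between probes of one gene far more than between ages. The median range within a gene was 3.45 log2 units of signal, against 1.95 over all named genes with several tested probes. A range grows with the number of probes. Exactly 2 tested probes were held by 13 of 27 splicing genes and by 1949 of 3380 named genes, so the 2 medians are not like for like. The widest range was that of SRSF2, at 7.27. Its dimmest tested probe was above background in the 10-month sample of 2 arrays and in the 16-month sample of 1, so that range is one of signal down to background and is no fold between RNA levels. The levels of the families given above rest on such probes.

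Splicing genes outside the name rule were taken from 3 lists of spliceosome proteins, splicing regulators and snRNP assembly factors. Of 54 other spliceosome proteins, 51 were tested, and 0 passed the adjusted limma test. At an unadjusted p under 0.05 there were 2, both with a lower value, where 1.92% of all probes had such a p and a lower value and 3.96% such a p in either direction. The ratio was positive for 15 and negative for 36, with a median of -0.05. SNRNP70, the U1 70K protein, had the smallest p of those with a positive ratio (0.23 ± 0.13), and the helicase DDX39B (BAT1 on the array) of those with a negative one (-0.31 ± 0.11, unadjusted p = 0.0267). Of 32 splicing regulators, 29 were tested and none had an unadjusted p under 0.05, with 12 positive, 17 negative and a median of -0.05. SYNCRIP, also called hnRNP Q, was at 0.26 ± 0.14 and ACIN1, a component of an exon junction subcomplex, at -0.27 ± 0.12. Of 16 genes of snRNP assembly, the SMN complex and its partners, 13 were tested and none had an unadjusted p under 0.05, with 5 positive, 8 negative and a median of -0.06. GEMIN6 was at 0.09 ± 0.15 and STRAP at -0.29 ± 0.13. Negative ratios were the more frequent in each of these 3 lists, where 50.8% of all named genes were negative. The lists were measured on the same arrays as the named families. Negative ratios were also the more frequent among the trophectoderm markers, at 7 of 8, but not in the other marker lists. The lean was thus not shown to be particular to splicing genes.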

How the data were processed

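The members and gene lists were chosen with earlier results of these data known. The deposited scan files hold linear spot intensities and local backgrounds of Cy5 and Cy3, per the file headers, not yet normalised. The authors' deposited value table holds log2 ratios, for which the submitters' processing notes name limma; it ran Cy5 over Cy3, correlating with the ratios computed here at 0.978 to 0.991, and was used as an alternative. Its centring (column medians -0.016 to -0.006) is unknown.

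Computation used R 4.3.3 and limma 3.58.1. Background was corrected on spot medians by normexp (offset 50), without set-aside spots, then loess was run within arrays, with control spots at weight 0. Levels are log2 channel intensities after quantile scaling of average intensity between arrays. Probes above the negative control median by 2 median absolute deviations, in either channel on 2 arrays or more, were tested, 36325 in all. The model held a dye and an age coefficient, with 2 residual and 5.72 prior degrees of freedom, and Benjamini-Hochberg adjustment ran over all of them. The scripts were tested on simulated data. The number of arrays limits the precision.

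Genes were named by rule: per family, the brightest and up to 3 of smallest p in each direction; over all families, 8 with the widest and 4 with the narrowest distance between probes; 41 of 43 textbook members, with SNRP70 and LSM8 not among the probes chosen; and, in other lists, the gene of smallest p in each direction. SRSF9, HNRNPA3, HNRNPH3, SFSWAP, PTPRC, CD14, CD3E, CYP19A1 and ODF2 were named where a count or list turned on them. Symbols are those of the platform annotation, updated through RefSeq (ARS-UCD2.0), which served for names only. Without a stated probe build, no coordinates are printed, and no probe sequences were used here.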

Additional observations from a re-analysis of the deposited data

Results flagged for a closer look

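For 68 splicing values, the highest or lowest of the 4 arrays was set against the others, and 2 stood apart by more than Dixon's 95% critical value for 4 arrays (gap over range). Chance alone gives about 1 in 20. SNRPB had a log2 ratio of -0.81 on replicate 4, against -0.14 to 0.00 on the other arrays (gap over range 0.8293). Without replicate 4 its fitted ratio was -0.0715, against -0.255 with all arrays. PRPF38A had a log2 ratio of -0.41 on replicate 3, against -0.01 to 0.07 on the other arrays (0.8374). Without replicate 3 its fitted ratio was 0.0384, against -0.0758 with all arrays. The second SNRPB probe read -0.63 on replicate 4 but also 0.73 on replicate 1, and the other PRPF38A probes read -0.25 and 0.01 on replicate 3. No cause was tested.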

How the results depend on the processing

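Under the alternatives, 940 single-gene values kept their side of the threshold and moved by less than the spread between arrays, 15 moved further, and HNRNPK passed the adjusted test in one, without replicate 4. With all arrays 0 splicing probes were called, so no called value could change sign. Uncalled ratios did: those of LSM4 and SF3B6 changed sign in 7 of 16 settings, while others, such as SNRPB2, did so in 0. Leaving out each array in turn, splicing probes past the adjusted limma test numbered 0 to 3 and all probes 0 to 1858 (6 without replicate 3, 1858 without replicate 4). At an unadjusted p under 0.05 these fits gave 1 to 9 splicing probes with a higher and 0 to 12 with a lower value (1 and 2 with all arrays), and 257 to 3563 higher and 200 to 3002 lower over all probes (743 and 696 with all arrays). The SR median was -0.181 to -0.0992 (-0.113 with all arrays). Splicing probes with a higher value numbered 3 without background correction. With spot means they were 0 higher and 6 lower, and with the sign of replicate 3 turned 0 higher and 5 lower. Splicing probes with a lower value numbered 1 with offset 10 (675 over all probes) and 0 with trended robust variance (651 over all probes). They numbered 1 with the strict filter and 1 without the dye term. Over all probes the counts were 354 higher and 452 lower with set-aside spots kept, 377 and 327 with the strict filter, and 434 and 365 without the dye term. With set-aside spots kept, the SR median was -0.0658. The medians that turned positive were HNRNP (0.0293 without replicate 3 and 0.0125 with its sign turned), SF3A (0.0479 without replicate 1, 0.0162 without replicate 3 and 0.0673 with the sign of replicate 3 turned) and LSM in 5 settings (up to 0.124). SNRPB was at 0.105 with spot means. The cause was not tested. Each array holds both ages, so the fit is paired within arrays and no further block was added. Ratios of dim probes are limited by the background and the offset.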

Other observations

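The log2 ratios of the 120 splicing probes correlated between arrays at 0.34 for replicates 1 and 2, which share a dye orientation, and at 0.12 for replicates 3 and 4, which share the other. Between orientations, with every array turned to 10 over 16 months, the values were -0.09, -0.26, -0.09 and -0.50, the last for replicates 2 and 4. Over all 36325 tested probes the same pairs gave 0.32, 0.12, -0.14, -0.26, -0.14 and -0.30. These are correlations across probes of the same arrays, given as a description.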
